A study of Homo sapiens with 6 samples.

Results

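The genes described here build the machinery of mitosis: the kinetochore, the spindle, the spindle assembly checkpoint, the anaphase-promoting complex and condensin. They form a list of 36 genes, taken by exact gene symbol from the annotation of the array's probe sets. No measured value enters that match by symbol, though the list was drawn up with earlier results of these data known. A probe set is a group of short probes that together read 1 transcript or a few related ones. Of the 36 genes, 35 had at least 1 probe set annotated to that gene alone, 107 probe sets in all, out of 49293 probe sets and 18132 genes on the array. The probe set of PTTG1, which encodes securin, is annotated together with another gene and was not analysed here. Each gene was read by its brightest probe set, picked by its measured mean over all 6 arrays, and the others are given further on.

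RNA came from MDA-MB-231 cells, an established human line of triple-negative breast cancer, infected stably with a lentivirus. In 3 arrays the virus was meant to overexpress CTCF (CTCF-OE), a zinc finger protein that binds DNA and shapes chromatin loops, and in the other 3 the cells carried the negative control (NC). The transgene was the full-length coding sequence, and the sources do not say whether each line was a clone or a pool. Nothing in the labels says that the 3 arrays of a group came from separate cultures, so each p-value measures only the spread between arrays, which may be technical.

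The CTCF probe set went against the labels. It read 398.5, 387.5 and 398.9 in the CTCF-OE arrays, against 462.6, 442.4 and 489 in the NC arrays. All 3 arrays labelled CTCF-OE were thus below all 3 labelled NC, with a log2 difference of -0.23 (SE 0.045, limma adjusted p = 0.0575) and an exact two-sided permutation p of 0.1, the smallest that 3 against 3 arrays allow. The fall passed adjusted p under 0.05 in 5 of 16 alternatives (0.00254 to 0.202 over all 16). The probe set's name ends in _s_at, which marks probes that may match other transcripts. Which part of the transcript it covers is not given in the sources used here, so it may not read the transgene. The groups are called by these labels in what follows, and each difference is CTCF-OE minus NC by label.

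As background, chromosomes that have been copied are packed by condensin and are caught by spindle microtubules at the kinetochore, a protein assembly built on the centromere. The spindle assembly checkpoint holds the anaphase-promoting complex (APC/C) in check until every kinetochore is attached, and the APC/C then tags securin and cyclin B for destruction, so that sister chromatids part. Most of these genes are transcribed late in the cell cycle. The DREAM complex keeps many of them silent in resting cells, and B-MYB and FOXM1 with the MuvB core activate them, through a promoter element called CHR that often lies near a CCAAT box bound by NF-Y.

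The promoters of 4 members are shown because these had the lowest adjusted p-values among members with a single annotated start. Each run is the 250 bases before the start in RefSeq (GRCh38.p14), written 5′ to 3′ along the gene's strand, which is the minus strand in all 4. Capitals mark the CHR letters (TTTGAA on the gene's strand, which reads as TTCAAA on the other, and TTTAAA, which reads the same on both strands) and the CCAAT letters, which read as ATTGG on the other strand.
CDC27, chr17:47189296-47189545: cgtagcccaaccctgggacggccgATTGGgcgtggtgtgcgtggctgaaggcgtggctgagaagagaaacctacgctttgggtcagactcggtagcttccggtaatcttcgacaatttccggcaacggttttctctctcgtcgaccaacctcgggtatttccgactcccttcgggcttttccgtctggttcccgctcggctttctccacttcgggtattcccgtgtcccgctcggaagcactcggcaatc
TOP2A, chr17:40417897-40418146: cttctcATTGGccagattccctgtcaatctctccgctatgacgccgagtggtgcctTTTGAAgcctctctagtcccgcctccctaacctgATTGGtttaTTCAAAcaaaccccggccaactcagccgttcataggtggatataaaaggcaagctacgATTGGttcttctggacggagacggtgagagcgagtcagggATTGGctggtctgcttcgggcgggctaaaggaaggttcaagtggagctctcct
SPC25, chr2:168890431-168890680: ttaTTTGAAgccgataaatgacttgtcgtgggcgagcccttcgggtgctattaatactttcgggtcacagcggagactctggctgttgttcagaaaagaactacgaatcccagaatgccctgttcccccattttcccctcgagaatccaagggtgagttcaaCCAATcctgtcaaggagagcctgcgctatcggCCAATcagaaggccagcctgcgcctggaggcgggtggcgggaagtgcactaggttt
ASPM, chr1:197146670-197146919: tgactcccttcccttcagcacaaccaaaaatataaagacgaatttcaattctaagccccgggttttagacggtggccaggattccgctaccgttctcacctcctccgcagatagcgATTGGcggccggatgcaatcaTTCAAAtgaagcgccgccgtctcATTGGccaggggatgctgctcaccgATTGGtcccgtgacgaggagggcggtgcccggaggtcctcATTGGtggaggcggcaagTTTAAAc

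CDC27 spans chr17:47117703-47189295, TOP2A chr17:40388525-40417896, SPC25 chr2:168861521-168890430 and ASPM chr1:197084127-197146669, and the runs end at the last base before each start. The TOP2A run holds both kinds of letters in several copies, with TTTGAA starting 194 bases before the start and again, reversed, at 151. In SPC25 a second TTTGAA begins 3 bases before the start and runs past it, so it carries no capitals above. The CDC27 run holds CCAAT letters alone, and its nearest CHR letters, TTTAAA, lie 41 bases into the transcribed side.

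Promoter windows of 250 bases before to 50 bases after the start were found for 29 of the 35 members, 36 windows in all, since some genes have several starts. The CHR letters (TTTGAA or TTCGAA or TTTAAA, on either strand) were present in 29 of the 36 windows, 80.6%, against 25.1% of all 35116 windows. Those windows belong to 27305 genes with a RefSeq start, more than the genes read on the array. Counted by gene, 27 of the 29 members had the letters in some window, 93.1%, against 29% of these genes. TTTGAA gave most of these, with 25 windows of the members, or 69.4%, against 15.2% of all windows. CCAAT was present in 23 windows of the members, 63.9%, against 34.6% of all windows. Both kinds of letters stood together in 20 windows of the members, 55.6%, against 9.7% of all windows. A match is a run of letters, not a shown binding site, and binding was not measured here.

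Of the 35 measured members, 34 had a higher mean in CTCF-OE than in NC, by small amounts, as 50.1% of all genes did. The log2 differences ran between -0.018 for NUSAP1 and 0.418 for CDC27, with a median of 0.097, while the median over all 18132 genes was 0.000. In limma with Benjamini-Hochberg adjustment over all genes, 2 members read by their brightest probe sets rose at adjusted p under 0.05, CDC27 and TOP2A, and 0 fell. Other probe sets of CDC27 lay below 0, and the mean over its probe sets gave 0.108 (adjusted p 0.118, in a range of 3.86e-06 to 0.501 over 17 alternatives). Over all genes, 0.734% passed in the higher direction and 1.40% in the lower one. By its brightest probe set, CDC27 alone was also past a fold of 1.3, where 0.0772% of all genes were called higher and 0.469% lower. At an unadjusted p under 0.05, 16 members were higher and 0 lower, against 7.93% and 9.29% of all genes.

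The 3 CTCF-OE values of a gene all lay above its 3 NC values in 24 members and all below in 0 members. This was so in 11.4% of all genes in the higher direction and in 13.3% in the lower one. Members are brighter than most genes, with a median intensity of 1120. The same shares were therefore taken over the 7769 genes at least as bright as the dimmest member. The median intensity of these genes was 556, so brightness was not fully matched. Among these, 1.18% passed in the higher direction and 2.25% in the lower one, 17.2% did not overlap in the higher direction and 20.7% in the lower one, 48.6% lay above 0, and the median log2 difference was -0.003. The members share a cell cycle and are not independent of each other. In bulk RNA, more cells in mitosis and more of these RNAs in each such cell cannot be told apart.

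**Figure D1:**
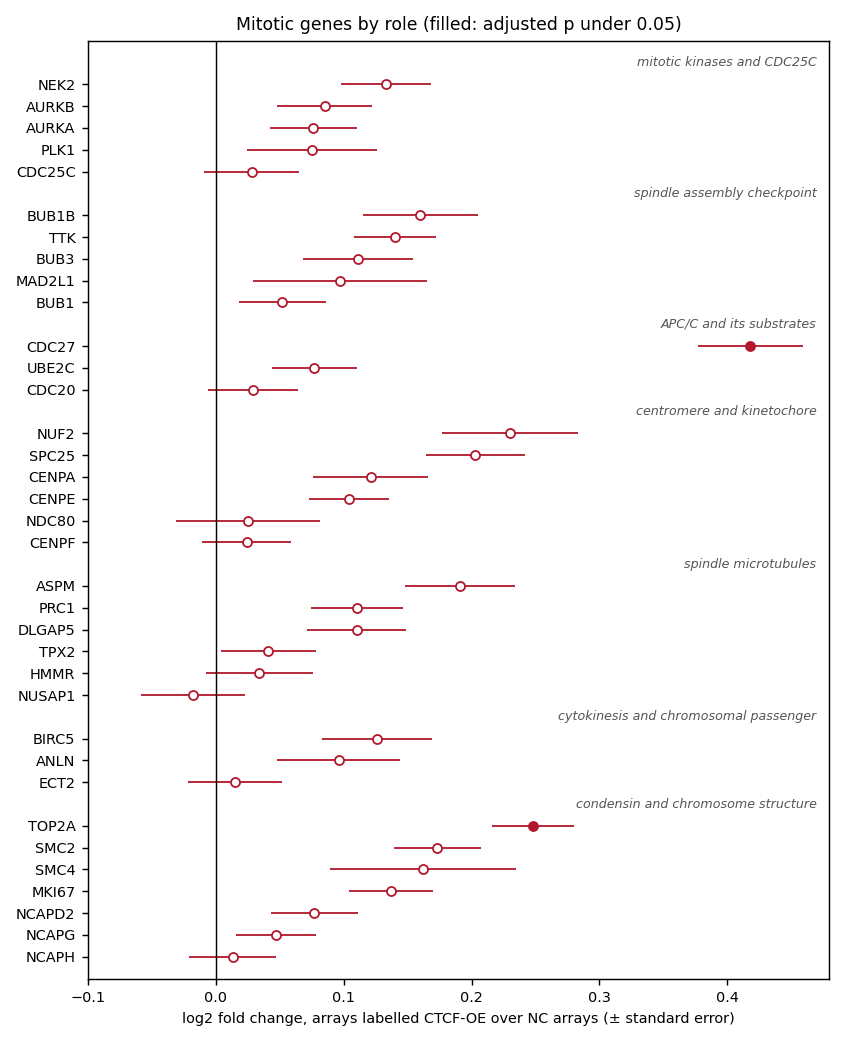
Log2 difference, CTCF-OE minus NC, of the 35 measured members grouped by role, with bars of 1 SE from limma; filled points passed adjusted p under 0.05. All points but that of NUSAP1 lie right of 0, most between 0 and 0.20, and only CDC27 and TOP2A are filled.

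**Figure D2:**
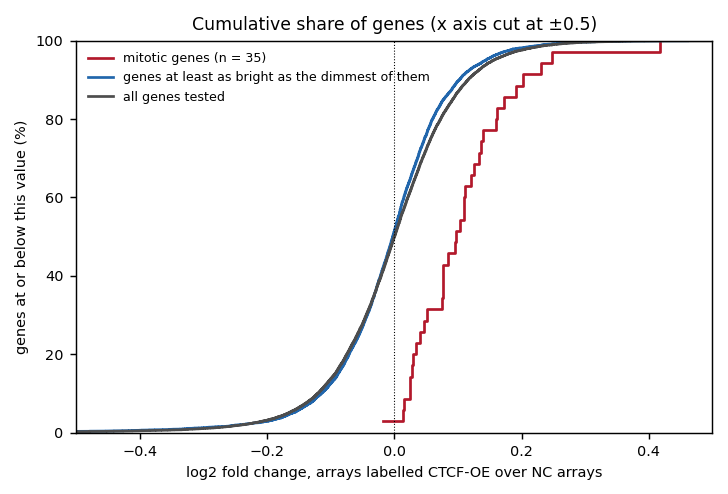
Cumulative share of genes by log2 difference, CTCF-OE minus NC, for the members, for genes at least as bright as the dimmest member and for all genes. The members' curve lies to the right, with its median at 0.097, against -0.003 for genes at least that bright and 0.000 for all genes.

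The offset was present in each array. Taking each member as its log2 distance from its own mean over the 6 arrays, the members' median was 0.047, 0.044 and 0.047 in the CTCF-OE arrays, against -0.048, -0.068 and -0.019 in the NC arrays. The median of all genes, taken the same way, stayed between -0.004 and 0.010. A member's distances cancel out over the 6 arrays, so the values by array partly restate the difference between the groups. In the CTCF-OE arrays 30, 33 and 32 of the 35 members stood above their own mean, against 2, 5 and 9 in the NC arrays. NC replicate 3 was thus the closest of the NC arrays to the CTCF-OE arrays, and the 2 members that peaked in an NC array did so there. Over the 3 arrays of a group, the members' SD on the log2 scale had a median of 0.023 in CTCF-OE and 0.038 in NC. The NC arrays were the more spread in 25 of the 35 members. This spread was not taken over all genes, so it may not be particular to the members.

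**Figure D3:**
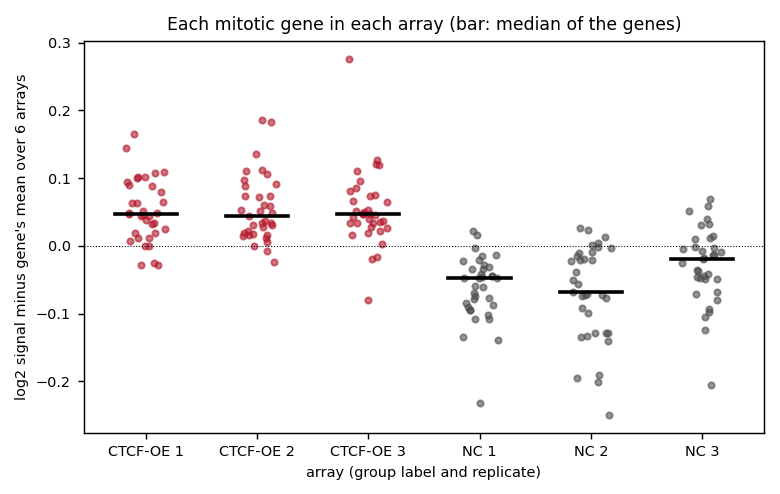
Log2 distance of each member from its own mean over the 6 arrays, by array, with the CTCF-OE arrays left of the NC arrays and the median of each array drawn as a line. The CTCF-OE medians are 0.047, 0.044 and 0.047, above those of the 3 NC arrays, which lie between -0.068 and -0.019.

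The mitotic kinases, with CDC25C, are given first. All 5 members of this group (AURKA, AURKB, PLK1, NEK2 and the phosphatase CDC25C, which activates CDK1) were above 0, none passed the threshold, and the median was 0.076. NEK2, a kinase that separates the centrosomes, had the largest difference of the group, 0.133 (SE 0.035, adjusted p = 0.119). AURKA, which matures the centrosomes, read 2505.2, 2480.7 and 2481.2 in CTCF-OE, against 2356.1, 2308.1 and 2421.8 in NC, a log2 difference of 0.076 (SE 0.034, adjusted p = 0.317). AURKB, the kinase of the chromosomal passenger complex, differed by 0.085 (SE 0.037, adjusted p = 0.31). The groups did not overlap for any of these 3 kinases. PLK1, which acts at centrosomes, kinetochores and the midbody, was the dimmest member and did overlap, with 177.5, 194.8 and 185.5 in CTCF-OE, against 167.8, 178.6 and 182.9 in NC.

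Of the spindle assembly checkpoint, all 5 genes were above 0 (median 0.111), 4 did not overlap, and none passed the threshold. Without NC replicate 2 the median was 0.072. BUB1B encodes BubR1, the checkpoint protein that binds and blocks the APC/C with MAD2 and CDC20. It read 915.8, 955.7 and 936.3 in CTCF-OE, against 821.4, 809.9 and 883.7 in NC (936 ± 20 and 838.3 ± 39.7, SD, n = 3 each), a log2 difference of 0.160 (SE 0.045, limma adjusted p = 0.136). The groups were apart, and NC replicate 3 came nearest to the CTCF-OE arrays. TTK, the MPS1 kinase that recruits the checkpoint to kinetochores, read 822.5, 820.9 and 834.9 in CTCF-OE, against 749.6, 738.6 and 761.3 in NC (log2 difference 0.140, SE 0.032, adjusted p = 0.088). BUB3 differed by 0.111 (SE 0.043, adjusted p = 0.261), or 0.072 without NC replicate 2, and BUB1 by 0.052 (SE 0.034, adjusted p = 0.49). MAD2L1, which encodes MAD2, overlapped, since NC replicate 3, at 2550.4, was above CTCF-OE replicates 2 and 3. NC replicate 2 was far below the rest at 2149. The MAD2L1 difference was 0.097 with all arrays, but 0.024 without NC replicate 2.

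Of the APC/C and the proteins that work with it, 3 genes were measured and all were above 0, with a median of 0.077. CDC27 encodes APC3, a core subunit of the APC/C whose repeats bind its activators. By its brightest probe set it read 903.7, 917.1 and 976.4 in CTCF-OE, against 686.4, 706.2 and 698.7 in NC. The means were 932.4 ± 38.7 in CTCF-OE and 697.1 ± 9.96 in NC (SD, n = 3 each), and CDC27 rose 1.34-fold (log2 difference 0.418, SE 0.041, limma adjusted p = 0.00714). The lowest CTCF-OE array stood well above the highest NC array. The call held with each array left out in turn (adjusted p 0.0333 to 0.0467), but it rests on the choice of probe set: with names ending in _s_at and _x_at left out, the difference was -0.070 (adjusted p 0.501, the highest of the 17 alternatives). UBE2C, the ubiquitin-conjugating enzyme that serves the APC/C, was the brightest member and did not overlap either, with 6500, 6517.8 and 6569.6 in CTCF-OE, against 6218, 6288.6 and 6064.7 in NC (log2 difference 0.077, SE 0.033, adjusted p = 0.293). CDC20, the activator of the APC/C that the checkpoint holds back, overlapped at 0.029 (SE 0.035, adjusted p = 0.733), or 0.012 without NC replicate 3.

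All 6 genes of the centromere and kinetochore were above 0, with a median of 0.113, and 4 did not overlap; none passed the threshold. NUF2 and SPC25 are subunits of the NDC80 complex, the rod that ties the kinetochore to microtubules. NUF2 read 630.3, 672.1 and 623 in CTCF-OE, against 552.1, 515.3 and 575.2 in NC (641.8 ± 26.5 and 547.5 ± 30.2, SD, n = 3 each), a log2 difference of 0.230 (SE 0.053, limma adjusted p = 0.089). SPC25 read 485.4, 488.7 and 496.1 in CTCF-OE, against 416, 416.2 and 444.7 in NC (490 ± 5.48 and 425.6 ± 16.5, SD, n = 3 each), a log2 difference of 0.203 (SE 0.039, limma adjusted p = 0.0575). Neither gene overlapped between the groups, and neither passed the threshold. NDC80 itself, a partner in the same complex, overlapped at 0.025 (SE 0.056), with 1312.6, 1338.5 and 1203.9 in CTCF-OE, against 1208.2, 1253.7 and 1325.4 in NC. SPC24, the remaining subunit and not on the list of members, also overlapped, at 0.023 (SE 0.040, limma adjusted p = 0.819). The subunits of this 1 complex thus differed in the size of their change, which was not tested.

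CENPA, the histone H3 variant that marks the centromere, differed by 0.121 (SE 0.045, adjusted p = 0.242) without overlap. CENPE, a kinesin that moves chromosomes to the spindle equator, had the tightest CTCF-OE values of the list, 615, 616.1 and 615.6, against 574.7, 577.8 and 565.2 in NC (log2 difference 0.104, SE 0.031, adjusted p = 0.157).

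Of 6 genes that organise spindle microtubules, 5 were above 0 and 4 did not overlap, with a median of 0.076 and none past the threshold. ASPM, which gathers microtubule minus ends at the spindle poles and is mutated in inherited microcephaly, led the group. It read 1025.9, 942.7 and 1009.8 in CTCF-OE, against 869.8, 885.5 and 851.6 in NC (992.8 ± 44.1 and 868.9 ± 17, SD, n = 3 each), a log2 difference of 0.191 (SE 0.043, limma adjusted p = 0.0855). PRC1, which bundles antiparallel microtubules at the midzone, and DLGAP5, a microtubule stabiliser, differed by 0.110 each (SE 0.036 and 0.039, adjusted p = 0.189 and 0.221). TPX2, the activator of Aurora A, had a difference of 0.041 (SE 0.037, or 0.013 without NC replicate 1) and did not overlap. HMMR overlapped at 0.034. NUSAP1, a protein that binds microtubules near chromosomes, was the only member below 0, with 1087.6, 1118.9 and 1093.5 in CTCF-OE, against 1073, 1107.9 and 1161.3 in NC (log2 difference -0.018, SE 0.041, adjusted p = 0.867).

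Among 3 genes of cytokinesis and the chromosomal passengers, all were above 0 and none passed. Their median was 0.096, but 0.055 without NC replicate 2 and 0.060 with the mean of each gene's probe sets. BIRC5, which encodes survivin, the passenger subunit that reads the centromere, read 1462.6, 1414.6 and 1511.4 in CTCF-OE, against 1317.4, 1396.1 and 1307.7 in NC (log2 difference 0.126, SE 0.043, adjusted p = 0.209). These values did not overlap. The groups overlapped for ANLN, the anillin scaffold of the contractile ring (0.096, SE 0.048, or 0.055 without NC replicate 2), and for ECT2, the exchange factor that switches on RhoA at the equator (0.015, SE 0.037).

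**Figure D4:**
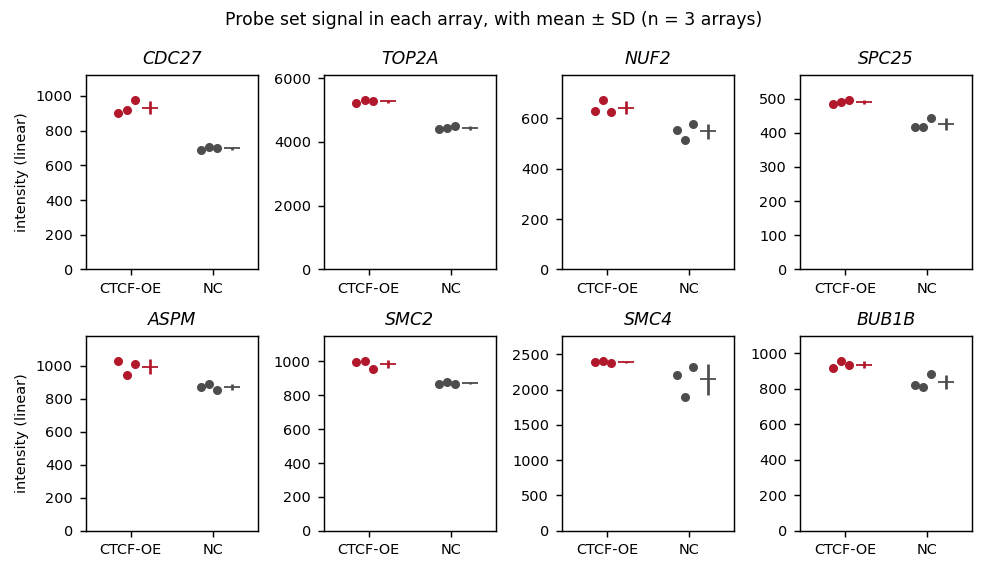
Intensity on each array for 8 members, CDC27 and TOP2A, which passed the threshold, and the 6 next in size of difference, CTCF-OE left of NC in each panel, with the group mean as a bar and 1 SD as the error. The groups do not overlap in any of these 8 panels; CDC27 is the most separated, and SMC4 has 1 low NC array at 1901.9.

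The 7 genes of condensin and chromosome structure were all above 0 and 6 did not overlap. Their median was 0.137, but 0.078 without NC replicate 2 and 0.096 with the mean of each gene's probe sets. TOP2A, the topoisomerase that untangles sister DNA and a target of etoposide and doxorubicin, read 5220.4, 5318.3 and 5282.9 in CTCF-OE, against 4394.8, 4425.8 and 4500.5 in NC. The means were 5273.9 ± 49.6 in CTCF-OE and 4440.4 ± 54.3 in NC (SD, n = 3 each), and TOP2A rose 1.19-fold (log2 difference 0.248, SE 0.032, limma adjusted p = 0.0165). The gap between the groups was many times the spread within either. The size of the difference stayed between 0.241 and 0.258 with any 1 array left out, but the call was kept only without NC replicate 3 (adjusted p 0.0467); without any of the other 5 arrays the adjusted p lay between 0.0532 and 0.099. With the mean of its probe sets TOP2A differed by 0.127 (adjusted p 0.0607, in a range of 3.86e-06 to 0.103 over 17 alternatives).

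SMC2 and SMC4 are the paired ATPase arms of condensin. SMC2 read 993.9, 1000.6 and 956 in CTCF-OE, against 867.7, 880.7 and 868.4 in NC (983.5 ± 24 and 872.3 ± 7.32, SD, n = 3 each), a log2 difference of 0.173 (SE 0.034, limma adjusted p = 0.0613). SMC4 read 2389.5, 2403.4 and 2381.9 in CTCF-OE, against 2208.2, 1901.9 and 2324.7 in NC (2391.6 ± 10.9 and 2144.9 ± 218.4, SD, n = 3 each), a log2 difference of 0.162 (SE 0.073, limma adjusted p = 0.318). The SMC4 groups were apart by a narrow margin, and its spread lay in the NC arrays. Without NC replicate 2 its difference was 0.078. The differences of the other condensin subunits, none past the threshold, were 0.077 for NCAPD2, 0.047 for NCAPG and 0.013 for NCAPH. MKI67, which encodes the Ki-67 antigen that coats mitotic chromosomes and marks dividing cells in pathology, read 1847.3, 1881.6 and 1829.9 in CTCF-OE, against 1666.1, 1678.4 and 1711.3 in NC (log2 difference 0.137, SE 0.033, adjusted p = 0.0943).

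All 107 probe sets of the 35 genes were then read, in a fit over all 49293 probe sets. Of these, 93 were above 0, against 50.1% of all probe sets, 6 rose at adjusted p under 0.05 and 0 fell; over all probe sets 0.803% passed in the higher direction and 1.27% in the lower one. In 59 the groups did not overlap in the higher direction and in 3 in the lower one, against 11.6% and 12.8% of all probe sets. Of the 25 genes with several probe sets, 18 had them all above 0, and 7 had both signs (BIRC5, CDC20, CDC27, HMMR, MKI67, NCAPH and NUSAP1). Probe sets of 1 gene read the same RNA samples and are not independent.

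The probe sets of CDC27 disagreed. The brightest, with a name ending in _x_at, and a second one ending in _s_at, which read 788.8, 769.3 and 805.5 in CTCF-OE, against 591, 609.9 and 587.7 in NC (log2 difference 0.402, SE 0.038, adjusted p = 0.00667), were designed on the same target sequence. The suffixes _x_at and _s_at mark probes that may also match other transcripts, and RefSeq lists 11 CDC27 pseudogenes, of which 2 are transcribed. Of the other 3 probe sets, an _at set read 774.2, 776.9 and 815.2 in CTCF-OE, against 820.7, 798.9 and 865.8 in NC (log2 difference -0.070, adjusted p = 0.492), and an _a_at set differed by -0.016 (adjusted p = 0.883). The last one was lower in all CTCF-OE arrays, with 564.6, 592.8 and 596.8 in CTCF-OE, against 648.9, 658.3 and 702.2 in NC (log2 difference -0.195, SE 0.047, adjusted p = 0.0953). The CDC27 values therefore give no single direction for the gene, and which transcripts the rising probe sets read was not tested.

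Probe sets other than the brightest gave calls for SMC2, CENPF and CDC25C, named here after their values were seen. An SMC2 probe set read 905.3, 907.7 and 896.5 in CTCF-OE, against 600.8, 636 and 653.1 in NC (log2 difference 0.520, SE 0.043, adjusted p = 0.00425), while its 6 others ran between 0.028 and 0.173. For CENPF, a large coiled-coil protein of the outer kinetochore, the brightest probe set differed by 0.024 (adjusted p = 0.792). Another CENPF probe set read 868.2, 816.8 and 814.8 in CTCF-OE, against 638.6, 670.7 and 623.5 in NC (log2 difference 0.371, SE 0.046, adjusted p = 0.0156). CDC25C showed the same split, at 0.028 for the brightest and 0.229 for another (SE 0.039, adjusted p = 0.0381), which read 291.1, 286.5 and 275.1 in CTCF-OE, against 238.6, 244.2 and 244.4 in NC. In each of these genes, the ratio of the most changed probe set to every other one of its gene was higher in all 3 CTCF-OE arrays than in all 3 NC arrays. The most changed probe set was picked from these same arrays, so a higher ratio largely follows from that choice and is no separate result.

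The other 2 TOP2A probe sets differed less than the brightest, by 0.084 (adjusted p = 0.293) and 0.049 (adjusted p = 0.541), with 2105.7, 2086.4 and 2030.6 in CTCF-OE, against 1942.4, 1961.3 and 1966.4 in NC for the first of them. The 7 NEK2 probe sets were all above 0, between 0.074 and 0.222. The 12 BIRC5 probe sets ran between -0.201 and 0.141, and the 2 negative ones had mean intensities of 135.2 and 24.5. Positive ones at 107.1, 65 and 37.8 were dimmer than the first of these. For MKI67 the 6 probe sets ran between -0.059 and 0.148.

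**Figure D5:**
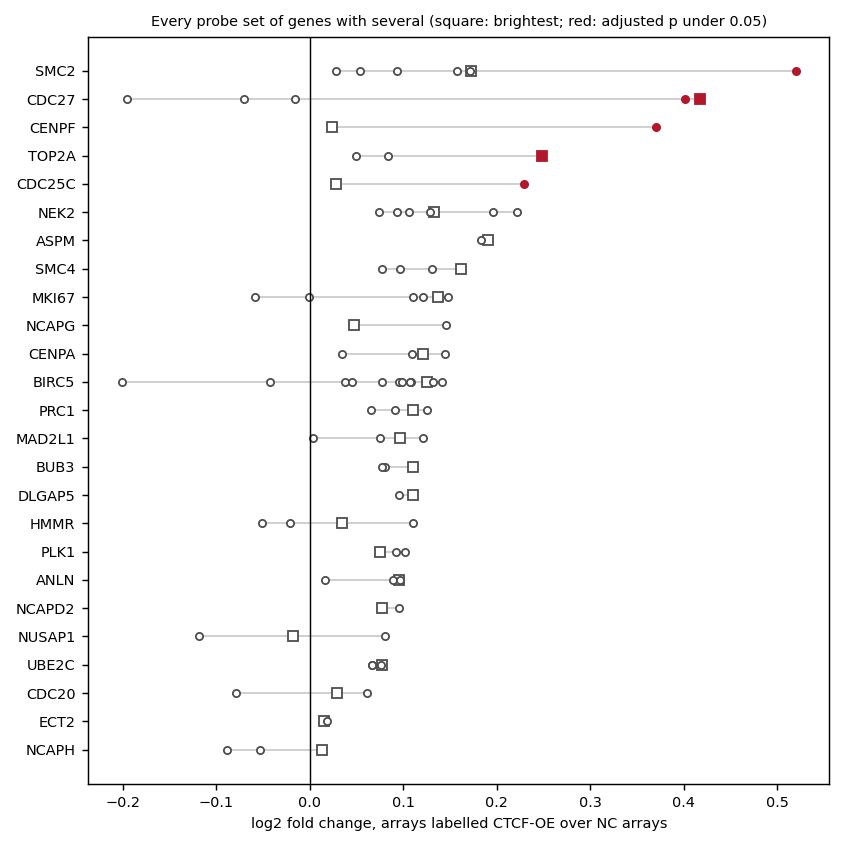
Log2 difference, CTCF-OE minus NC, of every probe set of the 25 members with several probe sets, by gene. The 10 members with 1 probe set are not drawn. Red marks adjusted p under 0.05 over all probe sets, and a square marks the brightest probe set of the gene. The CDC27 probe sets spread between -0.195 and 0.418, and the highest SMC2 probe set, at 0.520, stands away from the other 6.

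Genes of the same structures or of mitotic control that are not members were read from lists of their own. Over all genes, for comparison, 50.1% lay above 0, and 11.4% did not overlap in the higher direction and 13.3% in the lower one. Of 34 further centromere and kinetochore genes, 31 were above 0, with a median of 0.091. In 16 the groups did not overlap in the higher direction and in 0 in the lower one. CENPW, a histone-fold protein of the inner kinetochore, rose, with 1128.6, 1127.6 and 1179.5 in CTCF-OE, against 971.1, 974.3 and 1011.7 in NC (log2 difference 0.216, SE 0.037, limma adjusted p = 0.0414). Of 32 further genes of the spindle, cytokinesis and mitotic control, WEE1 and MASTL among them, 24 were above 0 (median 0.050). In this list 13 did not overlap in the higher direction and 1 in the lower one. DEPDC1, a protein of mitotic cells, rose in this list, with 1451.4, 1464.3 and 1451.9 in CTCF-OE, against 1282.1, 1252.5 and 1273.3 in NC (log2 difference 0.198, SE 0.031, limma adjusted p = 0.0324). Neither call was kept with any 1 array left out (adjusted p 0.0712 to 0.158 for CENPW and 0.0729 to 0.147 for DEPDC1). Both were also lost with a replicate block in limma (adjusted p 0.123 for CENPW and 0.139 for DEPDC1). CENPW was lost in the methods' t-test after adjustment (adjusted p 0.0703). With the mean of its probe sets DEPDC1 differed by 0.150 (limma adjusted p 0.0764).

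Among 16 further condensin and cohesin genes, 14 were above 0 (median 0.069, or 0.041 without NC replicate 2) and 0 passed. Of the 20 further APC/C and checkpoint genes, 11 were above 0, with a median of 0.001 and 0 past the threshold. In this list 3 genes did not overlap in the higher direction and 2 in the lower one, near the 11.4% and 13.3% of all genes. The log2 differences ran between -0.138 for MAD1L1 and 0.131. The regulators of these genes were also read. Of 13 genes of the DREAM, MuvB and FOXM1 axis, 10 were above 0 (median 0.048) and 0 passed. That median was 0.022 without CTCF-OE replicate 2, 0.031 without NC replicate 1, 0.028 without NC replicate 3 and 0.023 without _s_at and _x_at probe sets. FOXM1 differed by 0.048 (adjusted p = 0.579) and MYBL2, which encodes B-MYB, by 0.009 (adjusted p = 0.918). Subunits of the MuvB core lay at either end, with LIN52 at 0.165 (adjusted p = 0.134) and LIN37 at -0.195 (adjusted p = 0.0875).

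Over all 18132 genes, 386 passed adjusted p under 0.05 in limma, 133 higher and 253 lower. Median array intensities lay between 83.4 and 83.9 in CTCF-OE and between 83.3 and 84.5 in NC. The 18 probe sets for RNAs added at hybridization had a median log2 difference of -0.056 and all lay below 0, opposite to the members; ACTB and GAPDH controls lay between -0.011 and 0.026, a 28S rRNA control at -0.383 and an 18S rRNA control at -0.218. The summed intensity of 5 mesenchymal markers of this line (VIM, CD44, AXL, CAV1 and ZEB1) was 30955 to 31234 in CTCF-OE and 30951 to 31645 in NC, and 0 passed. Luminal and epithelial markers (10 genes) summed to 10674 to 10861 in CTCF-OE and 10829 to 11051 in NC, and 0 passed. Most of this sum came from KRT8, KRT18 and KRT19, with CTCF-OE means of 2813.8, 3315.9 and 3450.3. ESR1 and PGR had CTCF-OE means of 58.8 and 8.72. Fibroblast markers summed to 130 to 143 in CTCF-OE and 140 to 152 in NC, and leukocyte markers to 149 to 158 in CTCF-OE and 149 to 161 in NC. The part of any of these in the members' values was not tested.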

How the data were processed

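Total RNA of 6 samples was hybridized to Affymetrix PrimeView arrays, 1 array per sample. The authors deposited 1 normalized intensity per probe set on a linear scale; how it was summarized is not given in the sources used here. The 102 control probe sets were left out, 1 was added and log2 was taken. Of the rest, 44988 probe sets have 1 gene symbol, 1832 several and 2473 none; a gene was read by its brightest single-symbol probe set. CTCF-OE and NC were compared in R 4.3.3 with limma 3.58.1 (lmFit, eBayes, two-sided, Benjamini-Hochberg over all genes), tested on simulated data. Groups were compared within a probe set; probes differ in brightness, so ranks of level and sums over genes are of signal, not of RNA amount, and 3 arrays per group limit the precision. Windows and motifs were searched in Python 3.11.15.

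Named with all their values are members past adjusted p 0.05, filled up to 8 by size of change, as well as CTCF, the brightest and dimmest members and members whose probe sets disagree in sign with a call among them. AURKA, TTK, CENPE, NDC80, NUSAP1, BIRC5, MKI67 and second probe sets were chosen after their values were seen. The members and lists were chosen with earlier results of these data known. Alternatives were another value added before log2, quantile or median scaling, a filter on dim genes, a variance trend, a robust prior, the methods' t-test, a replicate block, the mean of a gene's probe sets, adjustment over all probe sets, leaving out each array and, chosen after seeing the data, leaving out _s_at and _x_at probe sets.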

Additional observations from a re-analysis of the deposited data

How the results depend on the processing

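The median log2 difference of the members stayed between 0.081 and 0.109 over the 18 alternatives, and 0 members fell in any of them. Several alternatives cannot move that median, which was 0.097 in each of them, as in the main fit. They are the filter on dim genes, the variance trend, the robust prior, the methods' t-tests, the replicate block and the adjustment over all probe sets. The range therefore comes from the other settings. Against 386 genes and 2 members called, the counts were 830 genes and 8 members with 16 added before log2, 668 genes and 5 members without the dimmest 20% of genes, 1449 genes and 16 members with an intensity trend, and 622 genes and 4 members with the mean of a gene's probe sets; these 4 were CENPF, ASPM, SMC2 and SPC25, and both CDC27 (0.108, adjusted p 0.118) and TOP2A (0.127, adjusted p 0.0607) were lost. Quantile normalization called 417 genes and 3 members. The methods' t-test called 114 genes and 1 member at the unadjusted threshold with a fold over 1.3, and 4 members after adjustment. Without _s_at and _x_at probe sets 1 member was called. Leaving out 1 array gave 67 to 170 genes and 1 to 2 members. Deviations of arrays with the same replicate number correlated at 0.010, 0.001 and 0.016, so the numbers were not taken as pairs; with the replicate block 54 genes and 0 members were called (CDC27 adjusted p 0.0534, TOP2A 0.103, in a range of 3.86e-06 to 0.501 for CDC27 and to 0.103 for TOP2A over the 17 alternatives). Of the calls, 65.5% were lower, against 56.5% with the trend and 94.4% with the block. Directions turned for 6 members: NCAPH (-0.043, mean of probe sets), HMMR (-0.021) and CDC27 (-0.070) without _s_at and _x_at probe sets, and, with 1 array left out, NDC80 (-0.006 to 0.071; below 0 without CTCF-OE replicate 2 or NC replicate 1), ECT2 (-0.009 to 0.031; below 0 without NC replicate 2) and NUSAP1 (-0.044 to 0.013; above 0 without NC replicate 3). The causes were not tested.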
